A study of Homo sapiens with 24 samples.

Results

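The effect of adding the first of a pair of ZBED2 siRNAs to a FOXA1 knock-down was measured in RT112 cells, an established bladder cancer cell line of the luminal papillary subtype. The comparison set 2 libraries of RT112 cells given siFOXA1 number 1 together with siZBED2-1 (the double knock-down) against 2 libraries of RT112 cells given siFOXA1 number 1 alone. These 4 libraries of the 24 in the series were chosen by their labels. Both groups carried the FOXA1 siRNA, were grown in RPMI with serum and were transfected in the same lipid reagent, so the ZBED2 siRNA was the labelled difference between them. The other 8 RT112 libraries (a control siRNA, either ZBED2 siRNA alone, or siFOXA1 with the other ZBED2 siRNA) served to estimate the spread between replicates. The same pair of treatments in SCaBER, a basal/squamous bladder cancer line, gave 4 further libraries for comparison. Only a single FOXA1 siRNA and a single ZBED2 siRNA entered the comparison, and no label names a filler siRNA in the siFOXA1 group, so an effect of ZBED2 loss and an effect of the added siRNA cannot be told apart. The labels number the replicates as experiment batches and do not say that they were separate cultures, so p-values measure only the spread between these samples.

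FOXA1 is a pioneer transcription factor of luminal urothelial cells, which opens chromatin at enhancers of differentiation genes. ZBED2 is a zinc finger transcription factor studied in keratinocytes and pancreatic cancer, where it can occupy sites that interferon regulatory factors also use. Interferon signalling runs from cell surface receptors through JAK kinases, STAT factors such as STAT2, and IRF9 to a large set of antiviral effector genes, and CD274 (PD-L1), an immune checkpoint ligand, is among the genes that interferon raises. The study used the double knock-down to ask what removing ZBED2 in addition to FOXA1 does to the inflammatory response.

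Expression was read by 3′ RNA-seq, in which cDNA is primed from the poly-A tail and reads fall near the 3′ end of each transcript. Total counts of the 4 libraries ran from 4881844 to 5183029, and 14121 to 15107 genes had at least 1 count. Levels are given as CPM, counts scaled to a common total after TMM normalization, and a count of 3, the most that a count of 0 allows, was worth 0.579 to 0.615 CPM. The epithelial and luminal markers EPCAM, KRT8, KRT18, KRT19, GATA3 and PPARG were all counted in all 4 libraries, whereas the umbrella-cell genes KRT20 and UPK3A had 0 counts in 3 of the 4. All 14 leukocyte markers together had 0, 2, 0 and 0 counts.

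The targeted genes were read first. FOXA1 stood at 6.84 and 9.46 CPM with siFOXA1 and at 4.04 and 11.3 CPM in the double knock-down, all below the 31.3 to 56.9 CPM of the 6 RT112 libraries without the FOXA1 siRNA. Its log2 fold change between the compared groups was -0.08 ± 0.41 (SE), with overlapping libraries. ZBED2 had 27 and 7 counts with siFOXA1 and 9 and 7 counts in the double knock-down, that is 5.43 and 1.5 against 1.91 and 1.42 CPM. Its log2 fold change was -1.06 ± 0.90 (SE, edgeR quasi-likelihood adjusted p = 0.647), so a further loss of ZBED2 in the double knock-down was not detectable at these counts. The control-siRNA libraries of the line held 101 and 92 ZBED2 counts.

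The genes that changed with siZBED2-1 had keratins, uroplakins and ribosomal protein genes among those that rose, and SEMA7A, ACLY and DNA replication genes among those that fell. Of 13264 genes tested with edgeR's quasi-likelihood test, 338 (2.55%) passed a Benjamini-Hochberg adjusted p of 0.05. Of these, 206 (1.55% of genes tested) rose and 132 (0.995%) fell, and 157 changed at least 2-fold, 86 upward and 71 downward. In bulk RNA a fall in a transcript and a fall in the share of cells that make it cannot be told apart. All 338 called genes had libraries of the groups that did not overlap, as had 42.9% of all genes tested (22% with the double knock-down higher, 20.8% lower). With the replicate number as a block, a fit that compares libraries of equal replicate number, 552 genes were called, 322 higher and 230 lower. Without siFOXA1 replicate 2 the count was 162, and without replicate 2 of the double knock-down it was 118.

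**Figure D1:**
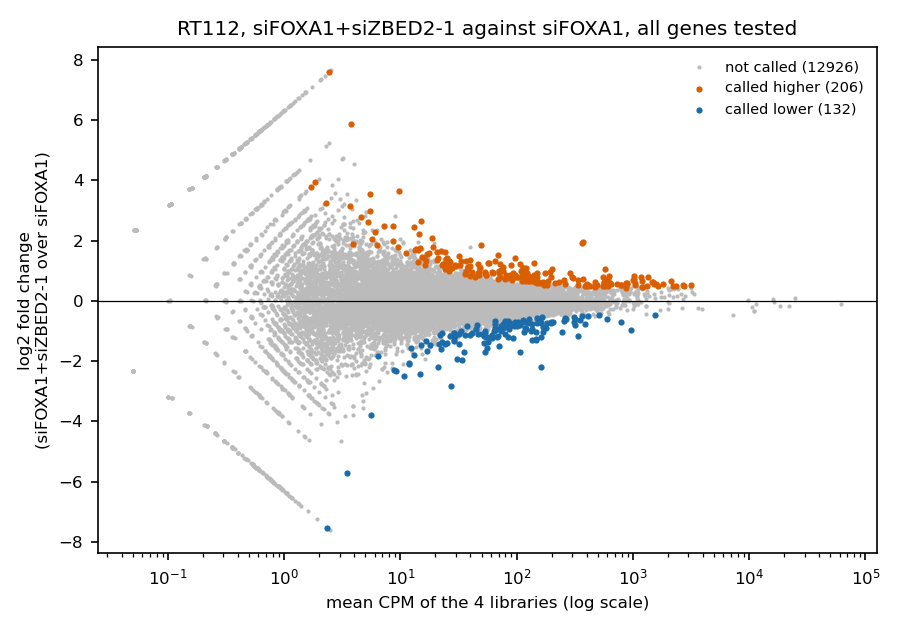
Each point is a gene tested in RT112, placed by its mean CPM over the 4 libraries (log scale) and by its log2 fold change, siFOXA1+siZBED2-1 over siFOXA1. The 206 genes called higher (orange) and 132 called lower (blue) reach smaller changes at high CPM than at low CPM, and the rows of grey points at the left are genes with a few counts.

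The strongest rise by p was that of KRT4 (ENSG00000170477, chr12:52806549-52814116 of GRCh38), a keratin of mucosal stratified epithelia. It stood at 189.9 and 112 CPM with siFOXA1 and at 481 and 695 CPM in the double knock-down, which gave a log2 fold change of 1.96 with an SE of 0.18 (adjusted p = 6.52e-07). Both double knock-down libraries lay above both siFOXA1 libraries, which the rule for named genes required. KRT81 (chr12:52285913-52291534), a hair keratin with close paralogs that may share its reads, went from 138 and 168 CPM to 539 and 617 CPM, a log2 fold change of 1.92 ± 0.28 (adjusted p = 0.000254). UPK2 (chr11:118956298-118958559), a uroplakin of the umbrella-cell surface, went from 79.3 and 74.2 CPM to 143 and 166 CPM (log2 fold change 1.01 ± 0.16, adjusted p = 0.000471). The replicates of these genes lay closer together than the groups did.

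Other named genes that rose had varied roles. F3 (chr1:94529173-94541759), tissue factor, which starts blood coagulation, rose from 20.1 and 22.6 CPM to 73.5 and 80.1 CPM, a log2 fold change of 1.85 ± 0.23 (adjusted p = 3.47e-05). CAV2, a caveolin of membrane pits, rose from 78.3 and 74.2 CPM to 164 and 161 CPM, and IGFBP3, which binds insulin-like growth factors, from 460.5 and 281 CPM to 703 and 834 CPM. By the rule for named genes neither gene's groups overlapped, and the log2 fold changes were 1.09 ± 0.15 and 1.05 ± 0.16. PPDPF, named for a role in exocrine pancreas development, rose from 110.2 and 58.5 CPM to 193 and 207 CPM (log2 fold change 1.24 ± 0.19). ETHE1, a mitochondrial enzyme of sulfide breakdown, rose from 41.4 and 63.2 CPM to 143 and 139 CPM (log2 fold change 1.43 ± 0.23).

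Genes of protein synthesis made up the rest of the 14 named genes that rose. RPS6, RPLP0, RPS12 and RPS3 encode cytosolic ribosomal proteins, AARS charges tRNA with alanine, and EIF3K is a subunit of a translation initiation factor. RPS6 stood at 1007 and 974 CPM with siFOXA1 and at 1637 and 1761 CPM in the double knock-down (log2 fold change 0.78 ± 0.11, adjusted p = 0.000239). AARS rose from 39.6 and 29.2 CPM to 87.3 and 75.7 CPM (log2 fold change 1.24 ± 0.20), and EIF3K from 104 and 100.2 CPM to 181 and 209 CPM (0.94 ± 0.15). Replicates of RPS6 and EIF3K differed far less than the groups.

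The strongest fall by p was that of SEMA7A (ENSG00000138623, chr15:74409289-74433958), a membrane-anchored semaphorin that signals through integrins. It stood at 209.6 and 325 CPM with siFOXA1 and at 63.3 and 52.4 CPM in the double knock-down, a log2 fold change of -2.21 ± 0.24 (adjusted p = 7.35e-06). BCAS2 (chr1:114567557-114581615), a spliceosome component, had the largest fall on the log2 scale of the 14 named lower genes, from 36.6 and 58.3 CPM to 6.16 and 7.28 CPM, a log2 fold change of -2.81 ± 0.38 (adjusted p = 0.000135). ACLY (chr17:41866917-41930545), which makes cytosolic acetyl-CoA for lipid synthesis, fell from 142 and 186 CPM to 59.1 and 41.9 CPM (log2 fold change -1.70 ± 0.20, adjusted p = 1.72e-05). The groups did not overlap in any of the 3 genes, which the rule for named genes required.

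Several of the other named genes that fell act in membrane traffic. CHMP4B, a subunit of the ESCRT-III membrane scission machinery, fell from 422 and 515 CPM to 205 and 209 CPM (log2 fold change -1.18 ± 0.14). ARF3, a small GTPase of the Golgi, fell from 232 and 218 CPM to 109 and 85.2 CPM (-1.21 ± 0.17), and SNX3, a sorting nexin, from 208 and 174 CPM to 82.6 and 72.4 CPM (-1.30 ± 0.19). These 3 genes were chosen by their p and not by their function. USP22, a deubiquitinase of the SAGA coactivator complex, fell from 336 and 326 CPM to 188 and 139 CPM (-1.02 ± 0.15). MRPS10, of the mitochondrial ribosome, fell from 190.1 and 225 CPM to 96.2 and 74.8 CPM (-1.28 ± 0.17).

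The remaining named genes that fell were TMEM14C and TMEM14B, MAP7D1, the long non-coding RNA FGD5-AS1, ABHD2 and DAP. TMEM14C, a mitochondrial membrane protein needed for heme synthesis, fell from 25.3 and 23.9 CPM to 5.31 and 3.84 CPM (log2 fold change -2.42 ± 0.34), and its neighbour TMEM14B, on chromosome 6, from 59.7 and 37.6 CPM to 9.35 and 16.4 CPM (-1.92 ± 0.28). Reads that align equally to these paralogs or their processed copies are not counted, so the level of each is uncertain. The log2 fold changes of the last 4 ran from -1.58 ± 0.21 for FGD5-AS1 to -1.22 ± 0.18 for DAP. All 28 named genes stayed past the threshold when any 1 of the 4 libraries was left out, and when the 4 libraries were fitted alone.

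**Figure D2:**
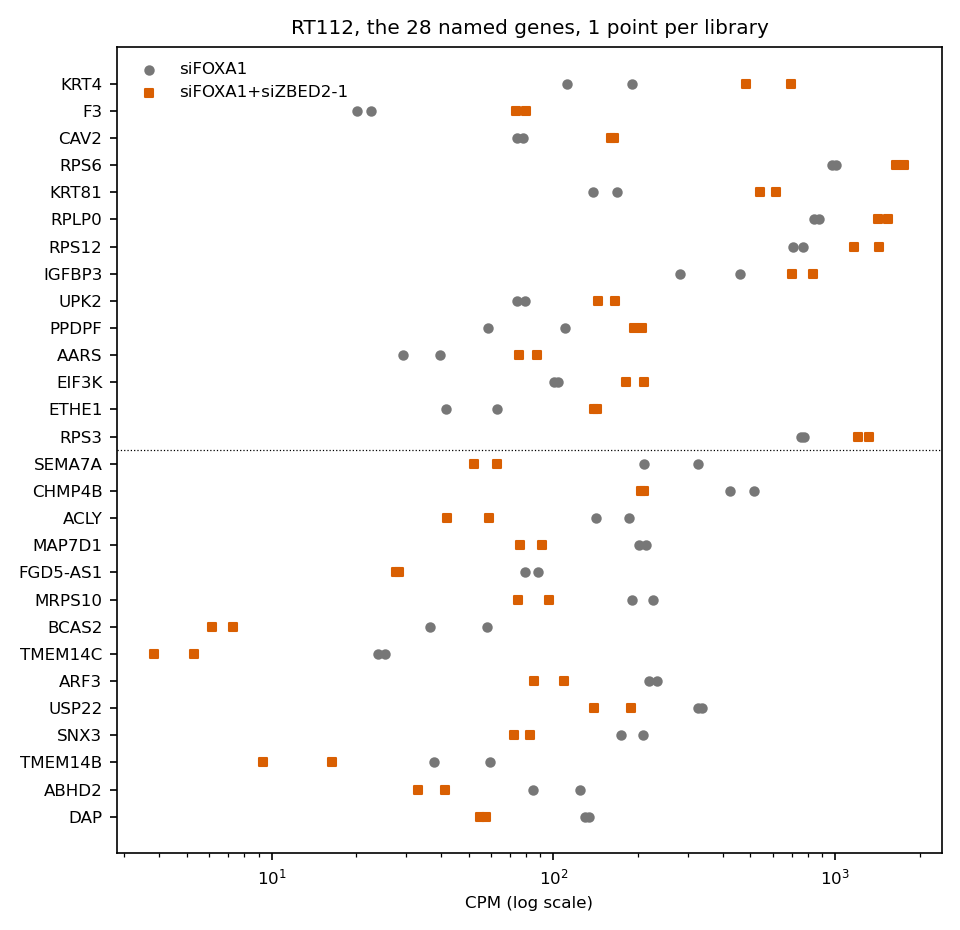
CPM (log scale) of the 28 named genes in each of the 4 RT112 libraries, siFOXA1 as grey circles and siFOXA1+siZBED2-1 as orange squares. In the upper 14 genes both squares lie right of both circles (KRT4 at 481 and 695 against 189.9 and 112 CPM), and in the lower 14 they lie left of them (SEMA7A at 63.3 and 52.4 against 209.6 and 325 CPM).

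A small number of called genes were close to absent in one group. BACE1, the beta-secretase, had 1 and 0 counts with siFOXA1 and 27 and 45 counts in the double knock-down, a ratio of 71.8 with an exact 95% counting interval of 12.5 to 2875. ENOX1 had 0 counts in the siFOXA1 group and 47 in the double knock-down, at least 15.6-fold higher against a floor of 3 counts over the group. TMEM116 went the other way, from 45 counts to 0, at least 15.0-fold lower. The other 3 such genes were PCAT6 (2 counts against 34), HOXD9 (2 against 31) and GLB1L2 (65 against 1), all named after their values were seen, and the intervals cover counting error only.

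Interferon genes, which the question concerns, gave almost no calls in RT112. None of the 42 tested interferon-stimulated effectors was called in either direction with edgeR, nor with DESeq2, and 2 had an unadjusted p under 0.05. Their median log2 fold change was -0.07, against 0 for all genes tested, with 17 members above 0 and 25 below. The receptors, JAK kinases, STAT and IRF factors had a median of -0.08 over 23 tested members. In that list IFNAR2, a chain of the type I interferon receptor, fell from 108 and 85.5 CPM to 54.4 and 49.4 CPM (log2 fold change -0.90 ± 0.23, adjusted p = 0.0289), a call that held only in 1 of the 4 fits with a library left out.

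STAT2, a STAT factor of the type I response, stood at 54.1 and 45.1 CPM with siFOXA1 and at 60.3 and 40.9 CPM in the double knock-down. Its log2 fold change was 0.027 ± 0.28 (adjusted p = 0.986), and the siFOXA1 libraries lay between the 2 of the double knock-down. CD274 stood at 12.1 and 12.5 CPM with siFOXA1 and at 9.14 and 14.2 CPM in the double knock-down (log2 fold change -0.07 ± 0.62, adjusted p = 0.982), again with the siFOXA1 libraries between the others. IRF1, an interferon regulatory factor, stood at 73.8 and 47.5 CPM against 72.9 and 48.1 CPM, and IRF9 at 25.3 and 20.0 CPM against 26.3 and 6.27 CPM. For IRF1 replicate 1 was higher than replicate 2 in both groups, by more than the groups differed.

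The effectors shared that split between replicate numbers. ISG15, a ubiquitin-like protein that interferon induces, stood at 387 and 171 CPM with siFOXA1 and at 310.4 and 102 CPM in the double knock-down (log2 fold change -0.44 ± 0.40, adjusted p = 0.679). IFIT1, which binds foreign RNA ends, stood at 94.1 and 46.6 CPM against 82.4 and 52.6 CPM. Summed over all effectors, siFOXA1 held 16367 and 9420 counts and the double knock-down 13734 and 9547. The median log2 difference was -0.17 within replicate 1 and -0.08 within replicate 2. Leaving out a library moved the median of the fit from -0.07 to 0.35 (without siFOXA1 replicate 1), -0.50 (without siFOXA1 replicate 2), -0.45 (without double knock-down replicate 1) or 0.19 (without double knock-down replicate 2). With the replicate block 1 effector was called, HELZ2, a helicase, at a log2 fold change of -0.71 (adjusted p = 0.0253).

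Other immune genes changed one at a time, where 2.55% of all genes tested were called. TMEM173 (STING), the adaptor of cytosolic DNA sensing, rose from 9.46 and 8.38 CPM to 31.4 and 21.6 CPM (log2 fold change 1.57 ± 0.40, adjusted p = 0.0284), the only call among 13 tested nucleic acid sensors and adaptors, and it was lost whenever any of the 4 libraries was left out. IL1B, a pro-inflammatory cytokine, rose from 6.24 and 4.08 CPM to 18.3 and 29.5 CPM (2.20 ± 0.51, adjusted p = 0.0161), the only call among 11 chemokines and cytokines, lost without replicate 2 of either group. TNIP1, a feedback inhibitor of NF-kB, rose from 39.8 and 43.2 CPM to 86.3 and 73.8 CPM (0.95 ± 0.20, adjusted p = 0.0079), the only call among 20 NF-kB genes, lost without replicate 1 of the double knock-down. None of 13 MHC class I presentation genes was called with edgeR, nor with DESeq2, at a median of -0.51 and with 1 unadjusted p under 0.05. That median was -0.04 within replicate 1 and -0.46 within replicate 2, and -0.24 without siFOXA1 replicate 1, -0.30 without siFOXA1 replicate 2, -0.42 without double knock-down replicate 1 and -0.23 without double knock-down replicate 2. None of 8 checkpoint ligands was called with edgeR and 1 was with DESeq2, at a median of 0.26 and with 2 unadjusted p under 0.05. With the replicate block the checkpoint ligands CD276 (log2 fold change 1.12, adjusted p = 0.0284) and VTCN1 (1.00, adjusted p = 0.0333) passed the threshold.

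**Figure D3:**
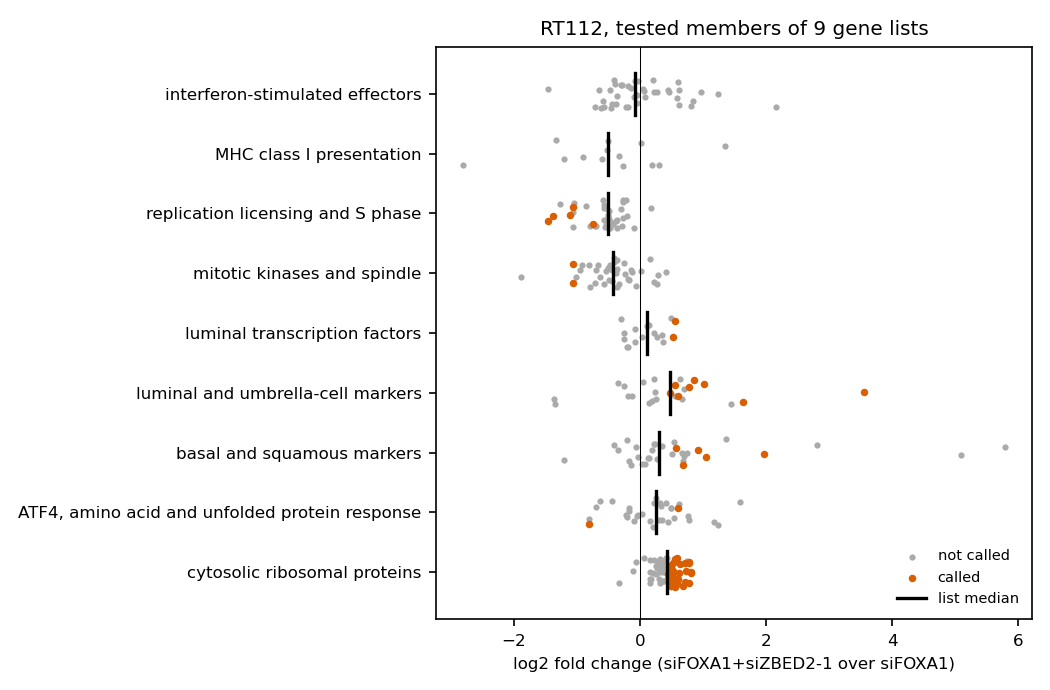
Log2 fold change in RT112, siFOXA1+siZBED2-1 over siFOXA1, of every tested member of 9 gene lists, with called members in orange, the rest in grey and the list median as a black bar. The median sits at -0.07 for interferon-stimulated effectors, at -0.51 for replication genes and at 0.43 for cytosolic ribosomal proteins, where 34 members are called.

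Differentiation genes of the luminal and of the basal list were among those that rose. Of 25 tested luminal and umbrella-cell markers, 8 were called higher and none lower. Their median log2 fold change was 0.48, with 19 above 0. Of 32 tested basal and squamous markers, 5 were called higher and none lower, with a median of 0.31 and 24 above 0. The basal median was 0.53 without siFOXA1 replicate 1 and 0.24 without siFOXA1 replicate 2. Over all genes tested, 1.55% were called higher. Without siFOXA1 replicate 2 the counts were 4 luminal and 2 basal markers, and without replicate 2 of the double knock-down 4 and 4. UPK2, KRT4 and SPRR3 were the markers that stayed called whichever of the 4 libraries was left out.

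Besides UPK2, the luminal markers called higher were MUC1, CYP4B1, GPX2, CD24, S100P, KRT18 and UPK1B. MUC1, an apical mucin, was nearly absent with siFOXA1 at 0.604 and 1.07 CPM and stood at 5.95 and 14.2 CPM in the double knock-down (log2 fold change 3.55 ± 0.75, adjusted p = 0.00867). CYP4B1, a cytochrome P450 of urothelium, rose from 8.85 and 12.7 CPM to 30.4 and 36.6 CPM (1.64 ± 0.36, adjusted p = 0.0109). S100P, a calcium-binding protein, rose from 402 and 339 CPM to 559 and 574 CPM (0.61 ± 0.13, adjusted p = 0.00707). The uroplakin UPK1B went from 689.8 and 757 CPM to 977 and 1042 CPM, a smaller log2 fold change of 0.48 ± 0.12 (adjusted p = 0.0251), and KRT18, a keratin of simple epithelia, from 797 and 640.4 CPM to 1111 and 1012 CPM (0.56 ± 0.14). For each of these genes both double knock-down libraries were above both siFOXA1 libraries, as for every gene called higher.

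Among 17 tested luminal transcription factors 2 were called, both higher, against 1.55% of all genes called higher. NR2F2, a nuclear receptor, rose from 503 and 550.3 CPM to 718 and 834 CPM (log2 fold change 0.56 ± 0.13, adjusted p = 0.0182), and KLF5, a Krüppel-like factor, from 145 and 136 CPM to 207 and 196 CPM (0.52 ± 0.13, adjusted p = 0.0311). NR2F2 was lost from the calls without siFOXA1 replicate 1 or double knock-down replicate 2, and KLF5 when any of the 4 libraries was left out. GATA3, a central luminal factor, stood at 269.6 and 276 CPM with siFOXA1 and at 358 and 410.4 CPM in the double knock-down. Its log2 fold change of 0.50 ± 0.14 just missed the threshold (adjusted p = 0.0503) and passed it with the replicate block (adjusted p = 0.0128). PPARG, a nuclear receptor of luminal cells, stood at 49.9 and 42.1 CPM against 49.1 and 52.4 CPM (0.14 ± 0.20, adjusted p = 0.816).

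The basal and squamous markers called higher were KRT4, DSP, SPRR3, KRT5 and KRT13. KRT4 and KRT13 form a keratin pair of the suprabasal layers of mucosa, and DSP and SPRR3 build desmosomes and the cornified envelope, so only KRT5 is a keratin of the basal layer itself. KRT5 stood at 271 and 245 CPM with siFOXA1 and at 397 and 432 CPM in the double knock-down (log2 fold change 0.68 ± 0.19, adjusted p = 0.0464), a call that was lost without replicate 2 of either group. DSP rose from 170.4 and 89.6 CPM to 284 and 257 CPM (1.06 ± 0.20, adjusted p = 0.00321). SPRR3 rose from 121 and 121 CPM to 232 and 228 CPM (0.93 ± 0.18, adjusted p = 0.00406). KRT14, the partner of KRT5, had 8 and 4 counts against 5 and 0, too few to show a change. KRT6A, whose paralogs may share its reads, stood at 4.22 and 0.215 CPM against 21.9 and 9.91 CPM and was not called (adjusted p = 0.252), but was with the replicate block (adjusted p = 0.00275).

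Mesenchymal and migration genes moved both ways. For comparison, 1.55% of all genes tested were called higher and 0.995% lower. SNAI2, a repressor tied to epithelial-mesenchymal transition, rose from 29.97 and 18.1 CPM to 46.7 and 58.3 CPM (log2 fold change 1.13 ± 0.27, adjusted p = 0.0215). MMP14, a membrane-bound matrix protease, fell from 246 and 248 CPM to 143 and 158 CPM (-0.71 ± 0.18, adjusted p = 0.0313). Of 20 tested members, 1 was called higher and 2 lower, with a median of -0.24, and each of the 3 calls was lost in at least 2 of the 4 fits that left out a library. With the replicate block 3 were called higher and 2 lower, the additions being FN1, fibronectin (log2 fold change 0.81, adjusted p = 0.0320), and THBS1, thrombospondin 1 (0.47, adjusted p = 0.0464). FOSL1, an AP-1 subunit that MAPK signalling raises, fell from 13.3 and 17.0 CPM to 2.97 and 3.03 CPM (-2.32 ± 0.56, adjusted p = 0.0217). It was the only call among 26 genes of ERBB, FGFR and MAPK output. Of the fits with a library left out, the call held only in that without siFOXA1 replicate 1.

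Several DNA replication genes fell in the double knock-down. Of 42 genes of replication licensing and S phase, 41 had a negative log2 fold change, the median was -0.51, and 5 passed the test, all lower, against 0.995% of all genes tested. MCM2, a subunit of the replicative helicase, stood at 80.7 and 64.1 CPM with siFOXA1 and at 39.9 and 29.5 CPM in the double knock-down (log2 fold change -1.06 ± 0.20, adjusted p = 0.00402). CDC6, which loads that helicase, fell from 76.2 and 60.8 CPM to 40.8 and 23.1 CPM (-1.10 ± 0.24, adjusted p = 0.0108). POLA1, the catalytic subunit of the primase-linked polymerase, fell from 27.6 and 16.8 CPM to 9.56 and 6.68 CPM (-1.45 ± 0.36, adjusted p = 0.0245). MCM4, of the same helicase as MCM2, fell from 210.6 and 160.4 CPM to 124 and 98.3 CPM (-0.74 ± 0.16). In each of these 4 genes both double knock-down libraries lay below both siFOXA1 libraries, as for every gene called lower.

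These falls depended on which libraries were compared. Within replicate 1 the median difference of the 42 genes was -0.61 on the log2 scale and within replicate 2 it was -0.38. With the replicate block 7 genes were called, MCM10 and RPA3 in addition. The count was 2 without siFOXA1 replicate 1 (median -0.15), 9 without siFOXA1 replicate 2 (-0.87), 11 without replicate 1 of the double knock-down (-0.67) and 0 without replicate 2 of the double knock-down (-0.29). Summed over the list, siFOXA1 held 12401 and 7822 counts and the double knock-down 7700 and 6484, so siFOXA1 replicate 1 was the highest of the 4.

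Replication genes are classical targets of E2F factors, and the promoters of the called genes are shown to display the letters of that site. The search used TTTCGCGC, TTTGGCGC, TTTCCCGC and TTTGCCGC on either strand in the 300 bases from 250 before to 50 after the RefSeq gene start on GRCh38.p14, and the first 2 overlap their own reverse complements in a palindromic site. A match stood in 18 of the 36 replication genes with a promoter entry (50%), in 3 of 34 mitotic genes (8.82%) and in 908 of all 27305 promoters (3.33%). MCM2, CDC6 and POLA1 had an entry among the 5 called genes, and all 3 held a match, shown in capitals in 30 bases of each promoter, all on the plus strand, at chr3:127598401-127598430, chr17:40287869-40287898 and chrX:24693770-24693799. In MCM2, where a pair of matches overlap, and in CDC6 they lie just after the start, and in POLA1 upstream of it on the opposite strand.
MCM2: acgtgaaccactTTTCGCGCGAAAcctggt
CDC6: cgctgtggccattcggaTTTGGCGCgagcg
POLA1: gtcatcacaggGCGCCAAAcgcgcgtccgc

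The mitotic list held fewer calls. Of 40 genes of mitotic kinases and spindle, 34 had a negative log2 fold change, with a median of -0.43. The test called 2 of them, both lower, against 0.995% of all genes called lower. CKS1B, a binding partner of cyclin-dependent kinases, fell from 223 and 174 CPM to 105 and 86.4 CPM (log2 fold change -1.05 ± 0.17, adjusted p = 0.000912) and stayed called when any of the 4 libraries was left out. AURKB, the kinase of the chromosomal passenger complex, fell from 34.2 and 27.3 CPM to 19.3 and 10.3 CPM (-1.06 ± 0.27, adjusted p = 0.0319). With the replicate block 5 were called, BIRC5, ECT2 and ANLN in addition. Summed counts were 14615 and 7523 with siFOXA1 against 9879 and 7299 in the double knock-down, and the list median was 0.15 without siFOXA1 replicate 1, -0.88 without siFOXA1 replicate 2, -0.91 without replicate 1 of the double knock-down and -0.12 without its replicate 2. Among 23 G1 cyclins, kinases, inhibitors and E2F genes the only call was CCNE1 (cyclin E1), which rose from 0.805 and 1.5 CPM to 11.3 and 4.65 CPM (2.76 ± 0.62, adjusted p = 0.0127) and lost its call without replicate 1 of either group. None of 24 p53 targets or 27 BCL2 family and cell death genes was called in the filtered, unblocked edgeR fit or with DESeq2. Their medians were -0.11 and -0.01, with 2 and 4 unadjusted p under 0.05. Without the filter on low counts 1 gene of the BCL2 family list was called higher.

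**Figure D4:**
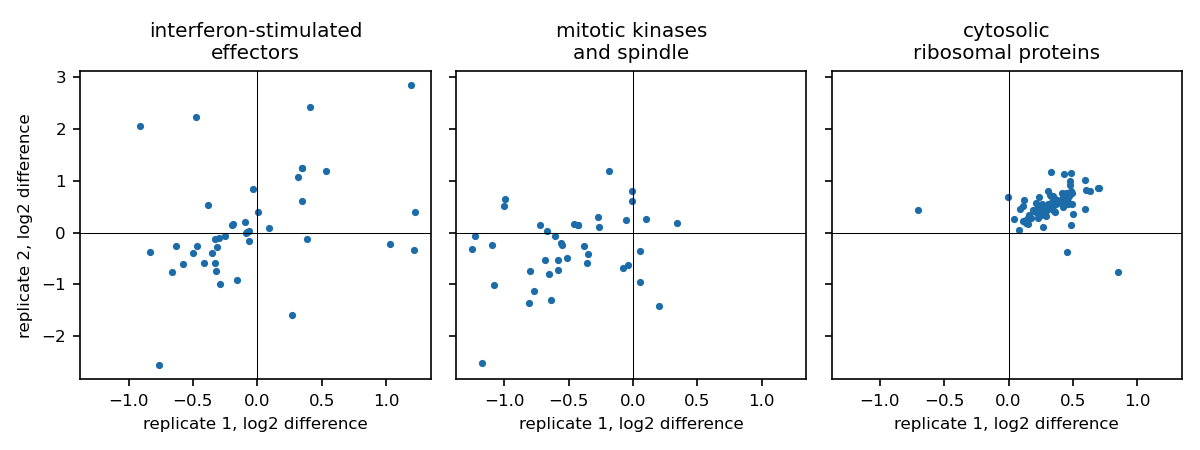
Log2 difference, double knock-down over siFOXA1, within replicate 1 (horizontal) and within replicate 2 (vertical) for every tested member of 3 gene lists. Ribosomal protein genes gather at positive values on both axes (medians 0.34 and 0.55), mitotic genes spread mostly below 0 (medians -0.53 and -0.26), and interferon effectors spread around 0 (medians -0.17 and -0.08).

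A large part of the cytosolic ribosomal protein genes rose by a small amount. This list was added after values were seen. Of its 78 tested members, 75 had a positive log2 fold change, and the median was 0.43. The test called 34 higher and none lower, against 1.55% of all genes called higher. The libraries did not overlap, with the double knock-down higher, in 71 of the 78, against 22% of all genes. The log2 fold changes of all members ran from -0.33 to 0.81, so no member changed 2-fold. RPLP0, of the ribosomal stalk, stood at 875 and 844 CPM with siFOXA1 and at 1418 and 1534 CPM in the double knock-down (0.78 ± 0.11, adjusted p = 0.000254). RPS12 rose from 771 and 708 CPM to 1166 and 1435 CPM (0.81 ± 0.12), and RPS3 from 774 and 756 CPM to 1199.8 and 1316 CPM (0.72 ± 0.12). RPL10A, RPL28, RPS6, RPLP0, RPS12 and RPS3 stayed called when any of the 4 libraries was left out.

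The median of the ribosomal protein genes held within each replicate, at 0.34 and 0.55, and ran from 0.37 to 0.53 when a library was left out. The count fell to 10 without siFOXA1 replicate 2 and to 10 without replicate 2 of the double knock-down. Many of these genes have processed pseudogenes that can take reads, so single values are uncertain. Translation initiation and elongation factors, also listed after values were seen, had a median of 0.02 over 29 tested members with EIF3K as the only call. The mitochondrial genome, which took 19.8% to 22.7% of counts in the 4 libraries, had a median of -0.16, 1 unadjusted p under 0.05 and no called transcript in the unblocked, filtered edgeR fit or with DESeq2. Under the block 1 transcript passed, MT-ND6 (log2 fold change -0.87, adjusted p = 0.0403), 3 were lower without the filter on low counts, and 1 was lower with the 4 libraries alone or without replicate 1 of the double knock-down. With the block EEF2, an elongation factor, also passed (0.38, adjusted p = 0.0475).

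Messages of ribosomal proteins carry a terminal oligopyrimidine tract, a run of C and T directly at the transcription start that controls their translation. A C at the RefSeq start followed by at least 4 further C or T stood in 43 of the 63 ribosomal protein genes with a promoter entry (68.3%), in 18 of the 27 called ones with an entry, in 9 of 23 translation factors (39.1%) and in 1104 of all 27305 promoters (4.04%). The 4 ribosomal protein genes with the smallest p are shown from 10 bases before to 20 bases from the start, read 5′ to 3′ on the strand of the gene, with the pyrimidine run from the start in capitals. They lie at chr9:19380217-19380246 (minus strand, RPS6), chr12:120201092-120201121 (minus strand, RPLP0), chr6:132814559-132814588 (plus strand, RPS12) and chr11:75399508-75399537 (plus strand, RPS3). All 4 runs open with C and hold no purine.
RPS6: gaagttggccCTCTTTTCCgtggcgcctcg
RPLP0: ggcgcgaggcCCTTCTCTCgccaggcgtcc
RPS12: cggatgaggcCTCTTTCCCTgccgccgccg
RPS3: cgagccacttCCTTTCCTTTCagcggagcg

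Metabolic and stress genes gave scattered calls, where 2.55% of all genes tested were called. HSPA5 (BiP), a chaperone of the endoplasmic reticulum, fell from 369.6 and 439 CPM to 248 and 214 CPM (log2 fold change -0.81 ± 0.14, adjusted p = 0.00134), while HSP90B1, another chaperone of that compartment, rose from 699 and 723 CPM to 1029 and 1132 CPM (0.60 ± 0.12, adjusted p = 0.00669). They were the 2 calls among 33 genes of the ATF4 and unfolded protein responses. The median of that list was 0.26, with 21 members above 0, 12 below, and 11 unadjusted p under 0.05. In SCaBER its median was 0.32, with 26 of 32 above 0, 6 called higher and 1 lower. Of 24 NRF2 antioxidant genes, SQSTM1 (p62), an autophagy receptor, fell from 1199.8 and 1336 CPM to 768 and 531 CPM (-0.97 ± 0.15, adjusted p = 0.000601), and TXNRD1, a thioredoxin reductase, fell (-0.91 ± 0.22). LDHA and GPI, enzymes of glycolysis, rose by 0.93 ± 0.20 and 0.80 ± 0.15 on the log2 scale, the only calls among 29 members of the glycolysis and hypoxia list. ACLY was the only call among 30 genes of cholesterol and fatty acid synthesis. No gene of a list of 24 BMP, TGF-beta and ID genes passed in the filtered, unblocked edgeR fit. With DESeq2 1 passed, and without the filter on low counts 1 was called higher. The list median was 0.08, with 4 unadjusted p under 0.05. SKIL, a repressor of SMAD signalling, passed with the replicate block (log2 fold change -0.53, adjusted p = 0.0328), and without replicate 1 of the double knock-down 1 gene was called higher and 1 lower. The block also added DDIT4 and SHMT2 to the ATF4 list and PFKP and GAPDH to the glycolysis list, all higher. HSPA5, SQSTM1 and ACLY stayed called whichever library was left out, and each of the other calls named here was lost in at least 1 of those 4 fits.

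The 14-3-3 proteins, phosphoserine-binding adaptors, split. YWHAH fell from 68.2 and 38.9 CPM to 16.8 and 10.5 CPM (log2 fold change -1.97 ± 0.31, adjusted p = 0.000471), whereas SFN, the epithelial member, rose from 493 and 402 CPM to 727 and 654 CPM (0.63 ± 0.15, adjusted p = 0.0177) and YWHAZ from 503 and 519 CPM to 679.9 and 747 CPM (0.48 ± 0.12, adjusted p = 0.0257). The other 4 of the 7 were not called, and 2.55% of all genes tested were called in either direction. Of 13 genes of the siRNA machinery, DICER1, which cuts precursor RNA into small RNA, fell from 116 and 91.6 CPM to 65.2 and 65.7 CPM (-0.66 ± 0.17, adjusted p = 0.0284), and the rest were not called. DICER1, SFN and YWHAZ each lost the call in at least 2 of the 4 fits that left out a library, and YWHAH in none.

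The same treatments in SCaBER gave a second view that shared no library with RT112. ZBED2 itself was called lower in SCaBER, from 20.4 and 19.1 CPM to 3.69 and 1.7 CPM. Its log2 fold change there was -2.84 ± 0.50 (edgeR adjusted p = 0.000537), whereas in RT112 a further loss was not detectable. The difference in ZBED2 between the lines, 1.78 ± 1.04, did not pass (adjusted p = 0.631). In SCaBER the test passed 359 of 13129 genes (2.73%), with 177 rising (1.35%) and 182 falling (1.39%). Of the 338 RT112 calls, 319 were tested in both lines. Of those 319, 267 (83.7%) had the same sign in SCaBER, against 57.4% of all 11763 genes tested in both. Genes called in both lines numbered 69. That is 21.6% of the 319 RT112 calls and 20.4% of the 338 SCaBER calls that were tested in both lines. All 69 had the same direction, 34 higher and 35 lower. The named genes that fell were shared most: all 14 were negative in SCaBER and 13 were called there, DAP being the exception (log2 fold change -0.65 ± 0.20, adjusted p = 0.0772). SEMA7A fell by 2.70 on the log2 scale in SCaBER, where TMEM14B fell by 2.53, and YWHAH changed by -1.98 there against -1.97 in RT112. Of the 14 named genes that rose, 13 were tested in SCaBER, all positive, and 6 were called, namely F3, RPS6, RPLP0, IGFBP3, PPDPF and AARS. IGFBP3 had a log2 fold change of 1.18 ± 0.20 there and PPDPF of 1.58 ± 0.19.

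**Figure D5:**
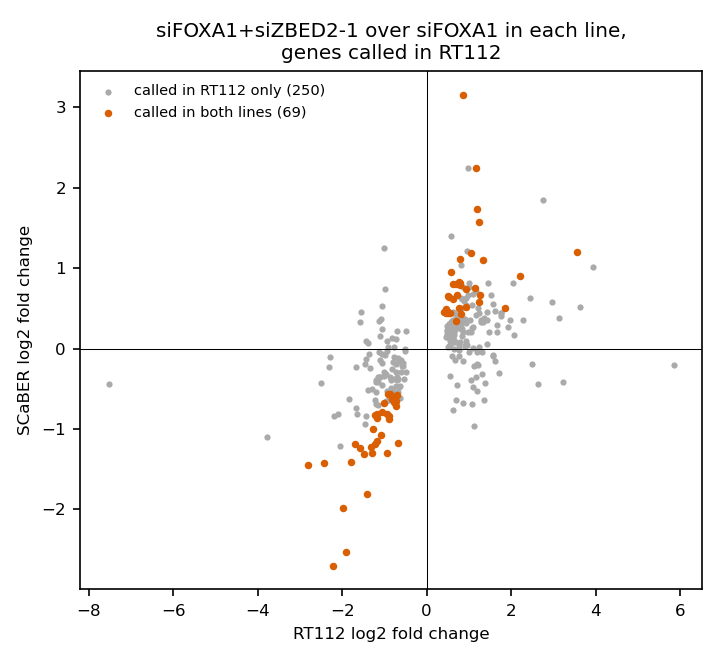
Log2 fold change, siFOXA1+siZBED2-1 over siFOXA1, in RT112 (horizontal) and SCaBER (vertical) of the 319 genes called in RT112 and tested in both lines, with the 69 called in both in orange. All orange points lie in the quadrants of equal sign, and 267 of the 319 points do.

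The difference between the lines was tested directly for every gene, and 22 of 14823 (0.148%) passed, 14 more positive in RT112 (0.0944%) and 8 more negative (0.054%). MCM2 was among them, at -1.06 in RT112 and 0.53 in SCaBER, a difference of -1.60 ± 0.28 on the log2 scale (adjusted p = 0.00566), and it was the only one of the 42 replication genes to pass. In SCaBER the replication list had a median of 0.04, with 23 of 42 above 0 and none called by edgeR, and the mitotic list a median of 0.22, with 29 of 40 above 0 and 3 called higher, against medians of -0.51 and -0.43 in RT112. F3 rose more in RT112 than in SCaBER (difference 1.33 ± 0.25, adjusted p = 0.0101), as did KRT81 (1.64 ± 0.34, adjusted p = 0.0289). No interferon-stimulated effector passed, although their median was -0.07 in RT112 and -0.82 in SCaBER. In SCaBER 19 of 43 were called lower and none was above 0. STAT2 was called lower in SCaBER (log2 fold change -0.69 ± 0.20, adjusted p = 0.0479), and its difference between the lines, 0.71 ± 0.34, did not pass (adjusted p = 0.533). CD274 differed by 1.28 ± 0.75 (adjusted p = 0.631). Ribosomal protein genes had a median of 0.22 in SCaBER, with 73 of 78 above 0 and 11 called higher, and none differed between the lines by the test.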

How the data were processed

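The authors deposited raw counts, whole numbers of reads per gene from QuantSeq FWD 3′ libraries. Per the labels and the settings deposited with the counts, reads passed Raw-qc 2.1.0 and TrimGalore 0.6.2 (minimum quality 20, minimum length 10) and were aligned and counted by STAR 2.6.1a on hg38 with GENCODE release 29, without molecular identifiers. The study's methods name hg19 instead. STAR counts unique alignments, so genes with near-identical copies can lose reads. The authors also deposited TPM values, which divide by gene length and do not suit 3′ reads; they served 1 alternative, as log2(TPM + 1).

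Counts were tested with edgeR 4.0.16 in R 4.3.3 (quasi-likelihood test, TMM, filterByExpr by group, minimum count 10, minimum total 15). All 12 RT112 libraries entered 1 fit with a mean per group, and only the 4 named libraries formed the contrast. The biological coefficient of variation was 25.8%. SE is the size of the log2 fold change divided by the square root of F. The difference between lines came from 1 fit of all 24 libraries. Replicates correlated at 0.937 (siFOXA1) and 0.942 (double knock-down) on log2 CPM and differed by more than counting noise (chi-square per gene 9.33 and 8.35).

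Replicate numbers pair samples by the labels' experiment batch. Deviations of equal numbers correlated at 0.0622, so pairing rests on the labels. Alternatives were RLE and library-size scaling, no filter, the replicate block, the 4 libraries alone, leaving out each library, DESeq2 1.42.0 and limma 3.58.1 on TPM.

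Named genes were the 14 called higher and 14 called lower with the smallest p among those with non-overlapping libraries and a mean of at least 5 CPM, the called members of gene lists, and genes of the study's question, some of which are not reported here. List members that were not called were named after their values were seen. The comparison, the 28 lists and these rules were chosen with earlier results of these data known, and 2 lists were added after values were seen. Gene positions, promoters and start sites are those of RefSeq on GRCh38.p14. The scripts were tested on simulated data.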

Additional observations from a re-analysis of the deposited data

Results flagged for a closer look

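The difference between the lines in the response to added siZBED2-1 passed the interaction test of edgeR for 14 genes named here, 12 chosen by the smallest p in each direction and KRT81 and GPX2 in addition. Differences are given as log2 fold change in RT112 minus that in SCaBER. In RT112 the response was more positive for BACE1 (6.06), INHBA, a subunit of activins (2.85), SMIM22 (2.08), KRT81 (1.64), TMEM63A, an ion channel (1.54), SAMHD1, a nucleotide phosphohydrolase that restricts viruses (1.35), and F3 (1.33). INHBA had 41 and 16 counts with siFOXA1 and 120 and 97 in the double knock-down of RT112, against 2138 and 1724, then 1288 and 923 in SCaBER. BACE1 moved from 1 count to 72 in RT112 and stood at 44 and 25, then 29 and 35 counts in SCaBER. INHBA and SAMHD1 were not called within RT112 (log2 fold change 1.94 and 0.51, adjusted p = 0.0654 and 0.28). Both were called lower within SCaBER (-0.93 and -0.85).

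The response was more negative in RT112 for TPM2, a tropomyosin (-3.95), GPX2 (-2.29), FOSL1 (-2.10), CHKA, a choline kinase (-1.73), MCM2 (-1.60), PTGES, a prostaglandin E synthase (-1.44), and H2AFY, a histone variant gene (-0.92). TPM2 had 23 and 29 counts with siFOXA1 and 1 and 2 in the double knock-down of RT112, and its fall within RT112 did not pass (log2 fold change -4.02 ± 1.36, adjusted p = 0.126), while SCaBER held 813 and 590, then 835 and 612 counts. CHKA fell in RT112 (-0.99, adjusted p = 0.0148) and stood at 0.73 in SCaBER (adjusted p = 0.0603). PTGES and H2AFY were not called within RT112 (-0.40 and -0.17, adjusted p = 0.243 and 0.626). Both were called higher within SCaBER (1.04 and 0.74). GPX2 rose in both lines, by 0.86 in RT112 and by 3.15 in SCaBER, where the siFOXA1 libraries stood at 2.05 and 0.453 CPM.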

How the results depend on the processing

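All 338 called genes kept their sign under every alternative that gave them a value. This was largely set in advance, because none of them had overlapping groups and every alternative reused the same libraries. The count of 338 calls (206 higher, 132 lower) became 552 (322 and 230) with the replicate block, 147 (87 and 60) with the 4 libraries alone, 10 (5 and 5) by limma on TPM, and 118 to 382 (70 to 263 and 41 to 182) when a library was left out. Lower calls were 200 without the filter and 204 by DESeq2, and the higher share of calls ran from 43.2% without siFOXA1 replicate 2 to 68.8% without siFOXA1 replicate 1. All 28 named genes stayed called except by limma on TPM, where 4 did. The cause of these shifts was not tested. The interferon effector median was -0.0048 on TPM and -0.50 to 0.35 with a library left out. The replication median then ran from -0.87 to -0.15, the mitotic one from -0.91 to 0.15, the basal-marker one from 0.24 to 0.53, the MHC class I one from -0.42 to -0.23 and the luminal-marker one from 0.19 to 0.47. The luminal-marker median was 0.25 with the replicate block and 0.27 on TPM. With a library left out, genes that were not called changed sign: STAT2 (-0.28 to 0.29), CD274 (-0.42 to 0.21), ZBED2 (-1.70 to 0.14), IRF1 (-0.34 to 0.35, and 0.027 on TPM), FOXA1 (-1.0 to 0.48) and IRF9 (-1.85 to 0.22). The 22 line differences became 101 without the filter, 151 by DESeq2 and 56 with the replicate block, and the 12 chosen by p passed in each. ZBED2 had 7 to 27 counts in the 4 libraries, so its change is imprecise.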
